A study of Mus musculus with 12 samples.

Results

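A miRNA is cut from a hairpin in steps. In the nucleus, Drosha frees the hairpin from a longer transcript. In the cytoplasm, Dicer then cuts the loop off and leaves a duplex of the guide strand, which is kept by an Argonaute protein, and the passenger strand, which is mostly lost. The sequences described here are the remaining pieces of the hairpin: those that the authors placed in the category pre (precursor) or loop, in the lists of DN3 thymocytes and regulatory T cells. They were taken from the category column of the deposited lists, with no use of their values. There were 116 of these distinct sequences under 46 hairpin IDs, of 1422 distinct sequences in all, and they made up 388 of 6003 list entries, of which 5120 were guide and 495 passenger entries. Only 1 of the 116 was called loop, and the other 115 were called pre.

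The 6 libraries came from FACS-sorted cells of mice backcrossed to C57BL/6 and 6 to 7 weeks old. DN3 thymocytes, an early stage that carries neither CD4 nor CD8, came from thymus. Their groups were Lck-cre mice (control), Drosha Lck-cre mice and Dicer Lck-cre mice, and Lck-cre is a Cre recombinase driven by a promoter active in early T cells. CD4+CD25+ cells, called Treg in the labels, came from spleen and lymph nodes. Their groups were CD4-cre mice (control), Drosha CD4-cre mice and Dicer CD4-cre mice, with Cre first made later in T cell development. The controls thus carried the same Cre as the deleted groups. The labels do not give the exact alleles, the number of animals or whether animals were pooled, and the lists do not measure how complete a deletion was. RNA of 19 to 30 nt was gel-purified, and only molecules that carried a phosphate at the 5′ end and a hydroxyl at the 3′ end took up adaptors. Drosha and Dicer leave such ends. Each group was 1 library, so no difference below has a replicate check and none was tested.

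The deposited values are mapping counts that the authors normalized and rounded, with list totals of 993965 to 1027032, so a value is read here as a number per 1000000 mapped to miRNA loci. Read depth is unknown. No sequence is listed below 10. A sequence that is not listed is therefore under that floor and not at 0, and since each list is scaled to its own total, a loss of all miRNAs together cannot be seen. T-lineage miRNAs (miR-142, miR-150, miR-181a, miR-155 and miR-146a) had summed guide and passenger values of 130935 to 179416, with all 5 listed in every library but DN3 control, which lacked miR-146a. Markers of other cells had lower sums, but not every single marker was lower. The T-lineage sums of DN3 came mostly from miR-142 and miR-181a. The erythroid miR-451, at 5126, 4268 and 8341 in DN3 control, Drosha and Dicer, was above miR-150, miR-155 and miR-146a there. In Treg Drosha miR-451, at 7748, was above miR-155 but below the other T-lineage miRNAs. In Treg control and Dicer it was below all 5. The 3 erythroid miRNAs summed to 5522, 4473 and 8806 in DN3 control, Drosha and Dicer and to 1198, 8533 and 991 in Treg control, Drosha and Dicer. The myeloid miR-223 was at 15 to 121 in DN3 and at 24, 588 and 746 in Treg control, Drosha and Dicer. The endothelial miR-126 ranged from 34 to 453, the 5 epithelial miRNAs summed to 129 to 275, and the 5 fibroblast miRNAs were not listed in DN3 and summed to 10, 80 and 11 in Treg.

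The first sequences to see are those that lie between the mature arms, since these are pieces of the loop. There were 3 of them, printed 5′ to 3′ in the DNA letters of the lists.
mir-142 loop, 19 nt: taacagcactggagggtgt
mir-16-1 pre, 20 nt: ttaagattctgaaattacct
mir-30e pre, 18 nt: gtaaggtgttgagaggag
Their place shows best in the whole hairpin. In the mir-142 hairpin of RefSeq (64 nt, build GRCm38.p6) the capitals mark the listed loop sequence.
mir-142 hairpin: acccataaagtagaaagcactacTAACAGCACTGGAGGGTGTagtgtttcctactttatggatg
The hairpin lies at chr11:87756864-87756927 on the plus strand, in an intron of the lincRNA gene Mir142hg. The loop sequence takes bases 24 to 42 of it and shares 1 base with the mature 5p arm and 3 with the 3p arm. The mir-16-1 sequence fills the space between its arms exactly, with no base shared and none left over, at chr14:61631916-61631935 on the minus strand, in an exon of the non-coding Dleu2. The mir-30e sequence leaves 2 bases after the 5p arm and ends directly before the 3p arm, at chr4:120772640-120772657 on the minus strand, in an intron of Nfyc.

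The other sequences to see are 5′ arms that start where the mature miRNA starts and run on at least 3 nt past its 3′ end. In the lines that follow the capitals mark the bases past the mature 3′ end given by RefSeq.
mir-451, 25 nt: aaaccgttaccattactgagttTAG
mir-451, 26 nt: aaaccgttaccattactgagttTAGT
mir-451, 27 nt: aaaccgttaccattactgagttTAGTA
mir-877, 23 nt: gtagaggagatggcgcagggGAC
mir-877, 24 nt: gtagaggagatggcgcagggGACA
mir-877, 26 nt: gtagaggagatggcgcagggGACACA
mir-15b, 26 nt: tagcagcacatcatggtttacaTACT
mir-16-1, 26 nt: tagcagcacgtaaatattggcgTTAA
mir-16-2, 26 nt: tagcagcacgtaaatattggcgTAGT
mir-16-2, 27 nt: tagcagcacgtaaatattggcgTAGTG
mir-181a-1, 27 nt: aacattcaacgctgtcggtgagtTTGG
mir-181a-1, 28 nt: aacattcaacgctgtcggtgagtTTGGA
mir-181a-1, 30 nt: aacattcaacgctgtcggtgagtTTGGAAT
The first 22 bases of mir-16-1 and mir-16-2 are the same, so only the capitals tell which of the pair a sequence came from. miR-451 and miR-877 are shown because their routes differ from the common one: mir-451 is known to be cut by Argonaute2 in place of Dicer, and mir-877 is a mirtron, an intron that folds into a hairpin and needs no Drosha. miR-15b, miR-16 and miR-181a are abundant miRNAs of the common route.

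In all, pre and loop sequences were a small part of each list. In DN3 control, Drosha and Dicer they numbered 78, 69 and 82 sequences of 1067, 916 and 1080, with summed values of 6012, 4089 and 6227. These sums were 0.605%, 0.411% and 0.626% of the listed value. In Treg control, Drosha and Dicer they numbered 50, 59 and 50 of 962, 1039 and 939, with sums of 5638, 4492 and 3931, or 0.562%, 0.437% and 0.387%. The lowest DN3 share was thus in Drosha, and in Treg both deletion libraries were below control. The Treg order rested on mir-142: without it the shares were 0.184%, 0.320% and 0.201% in control, Drosha and Dicer, so that control was the lowest. In DN3 the shares without mir-142 were 0.529%, 0.370% and 0.507%, with Drosha still the lowest. None of the 116 sequences was listed as guide or passenger in another library.

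What the word pre covers was read from the ends. RefSeq gave a hairpin and mature entry for 34 of the 46 IDs (81 sequences) and a mature entry alone for 3 (10 sequences). mir-30d, mir-320, mir-466b-1, mir-466d, mir-466f-1, mir-466h, mir-669a-1, mir-669f and mir-805 (25 sequences) had no entry in the table. Most sequences, 69 of 116, lay within a mature arm, allowing 3 nt at either end. By value these were 75.3%, 82.3% and 70.0% of the pre and loop sum in DN3 control, Drosha and Dicer, and 80.6%, 67.9% and 67.2% in Treg control, Drosha and Dicer. The 3 sequences between the arms summed to 223, 74 and 232 in DN3 and to 150, 79 and 61 in Treg. A category of pre therefore did not mean an uncut hairpin in most cases. Of 244 guide and passenger sequences that began with a mature sequence of these hairpins, 60 ran 1 or 2 nt past its 3′ end and 0 ran 3 nt or more. Of the 69 pre sequences that began at a mature 5′ end, 29 ran 3 nt or more past its 3′ end, 6 ran 1 or 2 nt past it, 12 ended with it and 22 were shorter. A sequence that ran 3 nt or more past the mature end was thus always called pre, but many pre sequences were no longer than the RefSeq arm.

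**Figure D1:**
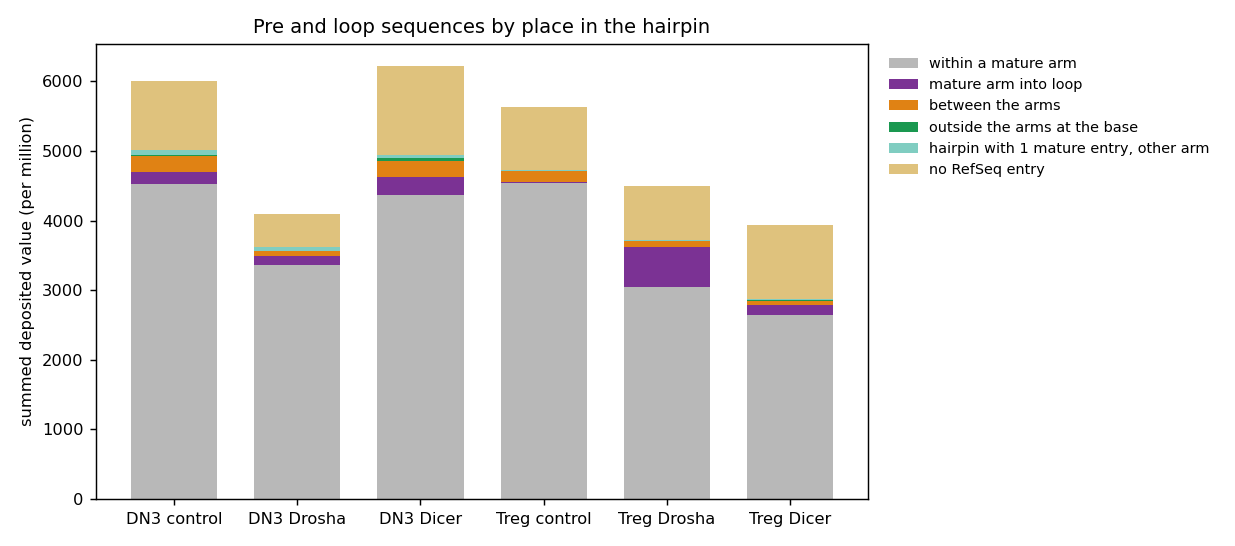
Stacked bars give the summed deposited value (linear axis from 0) of pre and loop sequences in each of the 6 libraries, coloured by place in the RefSeq hairpin. Sequences within a mature arm made up the most in every library (67.2% to 82.3%). The part labelled mature arm into loop was tallest in Treg Drosha, at 576. It holds arms that ran more than 3 nt past their mature end nearest the loop.

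The loop of mir-142 followed its mature miRNA in DN3. The mir-142 loop sequence had values of 124, 48 and 168 in DN3 control, Drosha and Dicer, and of 138, 66 and 61 in Treg control, Drosha and Dicer. Both Drosha libraries were below their control, and Dicer was above control in DN3 and below it in Treg. miR-142, a miRNA of blood cells in general, had guide and passenger sums of 33201, 12321 and 45006 in DN3 and 115744, 62808 and 72832 in Treg. Set against these sums, the loop was 0.373%, 0.390% and 0.373% in DN3 control, Drosha and Dicer and 0.119%, 0.105% and 0.0838% in Treg. The DN3 shares lay close together although the loop value itself differed between Drosha and Dicer. The mir-16-1 piece was at 46, 15 and 35 in DN3 and was listed only in Drosha, at 13, in Treg. The mir-30e piece was at 53, 11 and 29 in DN3 and only in control, at 12, in Treg. All 3 pieces of the loop were lowest in Drosha among the DN3 libraries. Set against its mature sum, the mir-16-1 piece was 0.0336%, 0.0169% and 0.0244% in DN3 control, Drosha and Dicer. The mir-30e piece was 0.487%, 0.113% and 0.333%. These shares were lowest in Drosha, unlike that of the mir-142 loop.

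A further pair of sequences lay outside the arms, at the base of the mir-20a hairpin, where Drosha cuts. mir-20a belongs to the miR-17~92 cluster, in an exon of the lincRNA gene Mir17hg, and the pair is shown because both end on the base directly before the mature miR-20a-5p.
mir-20a, 21 nt: atgtgacagcttctgtagcac
mir-20a, 19 nt: gtgacagcttctgtagcac
The longer one lies at chr14:115044162-115044182 on the plus strand (GRCm38.p6). It was at 12 in DN3 control, 24 in DN3 Dicer and 11 in Treg Dicer. The shorter was at 10 in DN3 control and 18 in DN3 Dicer. Neither was listed in a Drosha library, nor in Treg control, and all of these values are near the floor of 10.

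Arms that ran more than 3 nt past their mature end nearest the loop came to 15 sequences from 8 hairpins. In DN3 control, Drosha and Dicer 3, 2 and 10 of them were listed, and they made up 2.84%, 2.89% and 4.16% of the pre and loop value. In Treg control, Drosha and Dicer 1, 9 and 7 were listed, at 0.248%, 12.8% and 3.71%. 1 of the 15, from mir-374, began 7 nt before its 3p arm, and the others were 5′ arms. With mir-374, mir-451 and mir-877 left out, 1, 0 and 8 sequences were listed in DN3 (sums of 22, 0 and 131) and 0, 4 and 4 in Treg (sums of 0, 80 and 88). Outside those hairpins, DN3 Dicer thus listed the most of these sequences, and DN3 Drosha and Treg control listed none. The cause was not tested, and most of the values are within a few times the floor.

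In DN3 cells 5′ arms of miR-181a, miR-15b and miR-16 with more than 3 extra nt came mostly from the Dicer library. The mir-181a-1 sequences of 27, 28 and 30 nt were at 10, 11 and 12 in DN3 Dicer and were listed in no other library. Their counterpart with 3 extra nt was at 22, 32 and 17 in DN3 control, Drosha and Dicer, so the shorter extension did not share that pattern. All sequences with the miR-181a start summed to 98690, 163311 and 97816 in the same libraries, highest in Drosha, where the longer forms were not listed. The mir-15b sequence of 26 nt was at 18 in DN3 Dicer, 19 and 42 in the Drosha and Dicer libraries of Treg, and was listed in neither control. A mir-15b sequence of 31 nt was at 14 in DN3 Dicer alone. The mir-16-2 sequence of 26 nt was at 36 in DN3 Dicer, 25 and 23 in the Drosha and Dicer libraries of Treg, and that of 27 nt was at 18 in DN3 Dicer alone. The copy on the other locus, mir-16-1 with 26 nt, was at 22 and 12 in DN3 control and Dicer and at 24 and 13 in Treg Drosha and Dicer, so it was listed in 1 of the controls. For miR-21, a miRNA that is abundant in Treg, a 26 nt form was at 12 and 10 in Treg Drosha and Dicer. As a share of all sequences that began at the same base, forms with 3 or more extra nt were 0.0223%, 0.0196% and 0.0511% for miR-181a in DN3 control, Drosha and Dicer. For miR-16 they were 0.191%, 0.179% and 0.154%, and in Treg 0.101%, 0.289% and 0.143%. The extended share of miR-16 was thus highest in control and lowest in Dicer in DN3, and highest in Drosha in Treg.

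**Figure D2:**
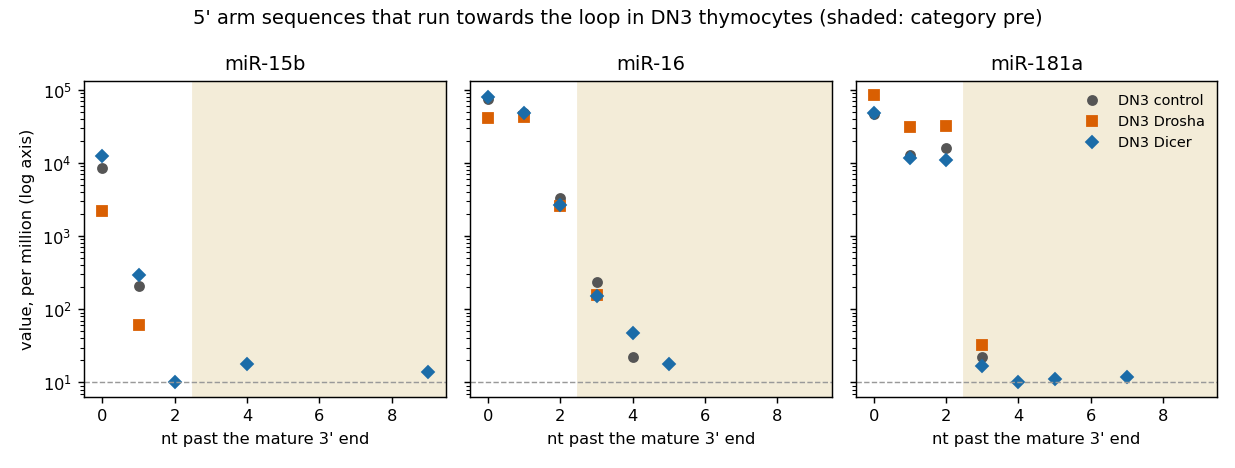
Points give the deposited value (log axis) of DN3 sequences that start at the mature 5′ end of miR-15b, miR-16 and miR-181a, by the number of nt past the mature 3′ end, with the shaded part in the category pre and the dashed line at the floor of 10. Beyond 4 nt past the end the points are from DN3 Dicer, at 11 to 18.

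The longest molecules of the lists were all pre sequences. There were 9 distinct sequences of 27 nt or more, and 0 of them were guide or passenger. DN3 Dicer listed 6 of them (summed value 85), DN3 control and Drosha 2 each (38 and 29), Treg Drosha 4 (76) and Treg control and Dicer 0. In DN3 control and Drosha both were from mir-805. Sequences of 25 nt or more made up 20.7%, 24.5% and 17.0% of the pre and loop value in DN3 control, Drosha and Dicer, against 2.14%, 3.87% and 1.41% of the whole list. In Treg the shares were 4.13%, 29.7% and 10.2%, against 0.145%, 0.344% and 0.172%. By value, then, Dicer had the lowest share of long pre sequences in DN3, although it listed the most sequences of 27 nt or longer.

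Among pre sequences of 25 nt or more, the 25 nt form of mir-451 had the highest value in the DN3 libraries and in Treg Drosha. In Treg control and Dicer the 25 nt form of mir-16-1 was higher, at 116 and 141. The hairpin of mir-451 (chr11:78073170-78073241, plus strand, outside other genes) carries the listed 27 nt form in capitals here.
mir-451 hairpin: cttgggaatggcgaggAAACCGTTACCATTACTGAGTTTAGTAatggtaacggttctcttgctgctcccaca
The mir-451 pre sum was 611, 368 and 637 in DN3 control, Drosha and Dicer, and 82, 738 and 116 in Treg control, Drosha and Dicer. Treg Drosha stood far above the other Treg libraries. miR-451 of the guide category was at 5126, 4268 and 8341 in DN3 and 1102, 7748 and 924 in Treg, so in Treg both categories were highest in Drosha, and in DN3 both were highest in Dicer. Among all sequences with the miR-451 start, those of 25 nt or more were 10.7%, 7.96% and 7.12% in DN3 and 6.93%, 8.73% and 11.2% in Treg. The ladder of lengths had the same shape in all 6 libraries: a peak 1 nt past the mature end, less at 2 nt, and a second, lower peak at 3 nt. Values of that second peak were 500, 303 and 534 in DN3 and 68, 605 and 90 in Treg. The other erythroid miRNAs stood with miR-451 in Treg: miR-144 was at 73, 648 and 67 in control, Drosha and Dicer, and miR-486 was at 23 and 137 in control and Drosha and not listed in Dicer. The part of red cell precursors in the mir-451 values was not tested.

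mir-877 was listed only where an enzyme was deleted, though not in every such library. The hairpin lies at chr17:35960730-35960814 on the minus strand, in an intron of Abcf1, and begins with the mature 5p arm. The capitals mark the longest listed form.
mir-877 hairpin: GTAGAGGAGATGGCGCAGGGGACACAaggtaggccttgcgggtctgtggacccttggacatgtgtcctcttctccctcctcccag
The mir-877 pre sum was 93, 778 and 42 in DN3 Drosha, Treg Drosha and Treg Dicer. It was not listed in DN3 control, DN3 Dicer or Treg control. The guide category was at 109, 428 and 18 in those 3 libraries. The pre category was thus the larger in Treg Drosha and Treg Dicer. Forms with 3 or more nt past the mature end were 46.0% of sequences with that start in DN3 Drosha, 64.5% in Treg Drosha and 70.0% in Treg Dicer. In Treg Drosha the ladder ran from 45 with the mature end to 284, 415 and 332 with 2, 3 and 4 nt more, and to 19 and 12 with 5 and 6 nt more. Most of the molecules counted as miR-877 were therefore longer than the mature entry.

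**Figure D3:**
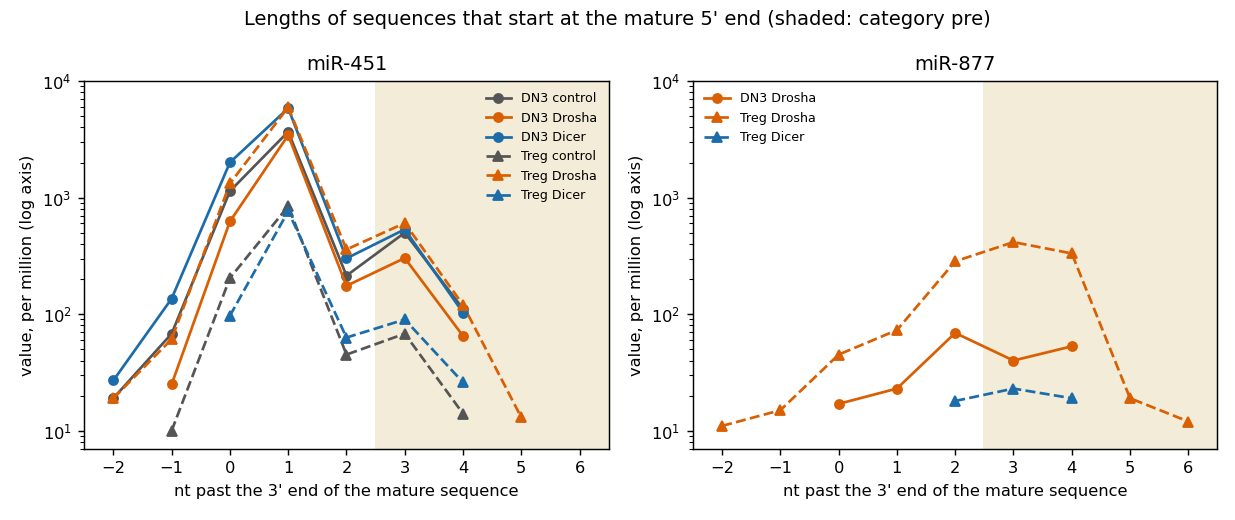
Lines give the deposited value (log axis) of sequences that start at the mature 5′ end of miR-451 (left, 6 libraries) and miR-877 (right, the 3 libraries that list it), by nt past the mature 3′ end, and the shaded part is the category pre. miR-451 peaks at 1 nt and again at 3 nt past the end, while miR-877 in Treg Drosha is highest at 3 nt, at 415.

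Other hairpins that need no Drosha, or that overlap other RNA, were few. Of 9 Drosha-independent hairpins on the list, 2 had pre or loop entries, mir-877 and mir-320, while 4 had guide or passenger entries. mir-320, whose ends come from transcription rather than from a Drosha cut, had a pre sum of 19 and 62 in DN3 control and Drosha and of 21 in Treg Drosha. It was not listed in either Dicer library or in Treg control. Its guide was at 1141, 6193 and 1087 in DN3 and 811, 2950 and 564 in Treg, highest in Drosha in both cell types. Its main pre form had 25 nt and was at 19 and 52 in DN3 control and Drosha.
mir-320, 25 nt: aaaagctgggttgagagggcgaaaa
Of 15 entries that overlap other non-coding RNA, only mir-805 was a pre entry. Its sum was 48, 44 and 20 in DN3 control, Drosha and Dicer and 89 in Treg Drosha, and its 5 forms of 25 to 30 nt shared 1 start.

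mir-142 was the largest hairpin in Treg. Its pre and loop sum was 757, 406 and 1183 in DN3 control, Drosha and Dicer and 3794, 1208 and 1885 in Treg control, Drosha and Dicer. It made up 67.3% of all pre and loop value in Treg control, against 12.6% in DN3 control. Its 6 pre sequences began 3 nt before the mature miR-142a-5p of RefSeq, at the first base of the hairpin, and so had other bases at positions 2 to 8, the seed by which a miRNA pairs with its targets. The seed is in capitals here.
mir-142 pre, 22 nt: aCCCATAAagtagaaagcacta
miR-142a-5p of RefSeq: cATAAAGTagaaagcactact
The 6 pre sequences summed to 633, 358 and 1015 in DN3 and 3656, 1142 and 1824 in Treg, so Drosha was lowest in both cell types. Guide sequences of the same arm began 2 nt before the RefSeq start (7941, 4214 and 12854 in DN3, 43512, 17228 and 21335 in Treg) or at it (12083, 3846 and 17196 in DN3, 46058, 26846 and 31808 in Treg). The pre form thus began 1 nt before a guide start that was lower than the RefSeq start in every library but DN3 Drosha, where it was higher. Starts 3 nt before the RefSeq start were 2.84%, 4.06% and 3.06% of the arm in DN3 and 3.72%, 2.38% and 3.13% in Treg, a range that holds no order shared by the cell types. The 21 nt form differed more between Treg libraries, at 1414, 85 and 413 in control, Drosha and Dicer.

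mir-92a-1 led in DN3 control. This hairpin is the last of the miR-17~92 cluster, which acts in lymphocyte growth. Its pre sum was 1214, 814 and 776 in DN3 and 164, 53 and 55 in Treg, and most of it (1194, 803 and 758 in DN3) came from the 5p arm, the strand opposite to the guide. The main form, with the seed in capitals, was the mature 5p arm itself.
mir-92a-1 pre, 23 nt: aGGTTGGGatttgtcgcaatgct
It was at 1010, 724 and 629 in DN3 and 150, 53 and 55 in Treg. Control was highest in both cell types. Of the 13 members of miR-17~92 and its paralogs, 6 had pre or loop entries, with list sums of 1707, 1095 and 1190 in DN3 and 243, 99 and 105 in Treg, again highest in control. All 13 were listed as guide or passenger. The passenger arm of mir-25 was at 187, 149 and 180 in DN3 and 27, 15 and 17 in Treg. The 22 nt form of the mir-19b-1 passenger arm was at 57, 15 and 48 in DN3 and only in control, at 19, in Treg.

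The miR-181 family, which tunes T cell receptor signals in thymocytes, was larger in DN3. Pre entries of 3 of its 4 members summed to 1061, 963 and 1069 in DN3 control, Drosha and Dicer and to 70, 102 and 29 in Treg. mir-181c was the largest, at 681, 774 and 701 in DN3 and 58, 68 and 17 in Treg. Its 3p arm gave 509, 532 and 622 of the DN3 values, and a 25 nt form of its 5p arm gave 172, 242 and 79, so the arms were ordered differently between Drosha and Dicer.
mir-181c 5p arm, 25 nt: aacattcaacctgtcggtgagtTTG
The capitals are the 3 bases past the mature end. Pre entries of mir-181b-1 were at 159, 55 and 71 in DN3, while those of mir-181a-2 were at 186, 91 and 237. In the miR-15/16 family, which restrains cell division, 3 of 6 members had pre entries: miR-15a, miR-15b and miR-16. The largest, mir-16-1, was at 306, 173 and 201 in DN3 and 116, 332 and 154 in Treg, so Drosha was lowest in DN3 and highest in Treg. The miR-29 family had 1 of 3, mir-29a at 10 to 17, and the miR-30 family 2 of 5, mir-30d and mir-30e, with sums of 76, 46 and 45 in DN3 and of 26 in Treg control alone. The let-7 family had a single entry, let-7f-2 at 10 in Treg control. Among 14 T lymphocyte miRNAs, 5 had pre or loop entries (miR-128, miR-142, miR-155, miR-21 and miR-26b). mir-155, the hairpin of a miRNA induced by T cell activation, was at 21, 19 and 10 in DN3 and 25, 40 and 33 in Treg.

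mir-669a-1, from a large repeated cluster of the mouse genome, was among the main entries in both cell types. Its largest form was at 389, 108 and 612 in DN3 and 602, 457 and 743 in Treg. Drosha was lowest and Dicer highest in both.
mir-669a-1 pre, 21 nt: acataacatacacacacacgt
All pre forms together were 34.7%, 22.1% and 44.3% of the value under this miRNA in DN3 and 48.4%, 57.7% and 58.9% in Treg, against a guide and passenger value of 1189, 547 and 1234 in DN3 and 790, 437 and 673 in Treg. Near-identical copies of this hairpin can share reads, so the assignment to 1 locus is uncertain. The same holds for the mir-466 and mir-669f entries. mir-140 was at 210, 209 and 316 in DN3 and 224, 133 and 210 in Treg, and its forms ended 3 nt past miR-140-3p. mir-511, which lies in an intron of the macrophage gene Mrc1, was listed only as pre, at 15 in Treg Drosha and 26 in Treg Dicer, the 2 Treg libraries with the higher miR-223. The part of myeloid cells was not tested.

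**Figure D4:**
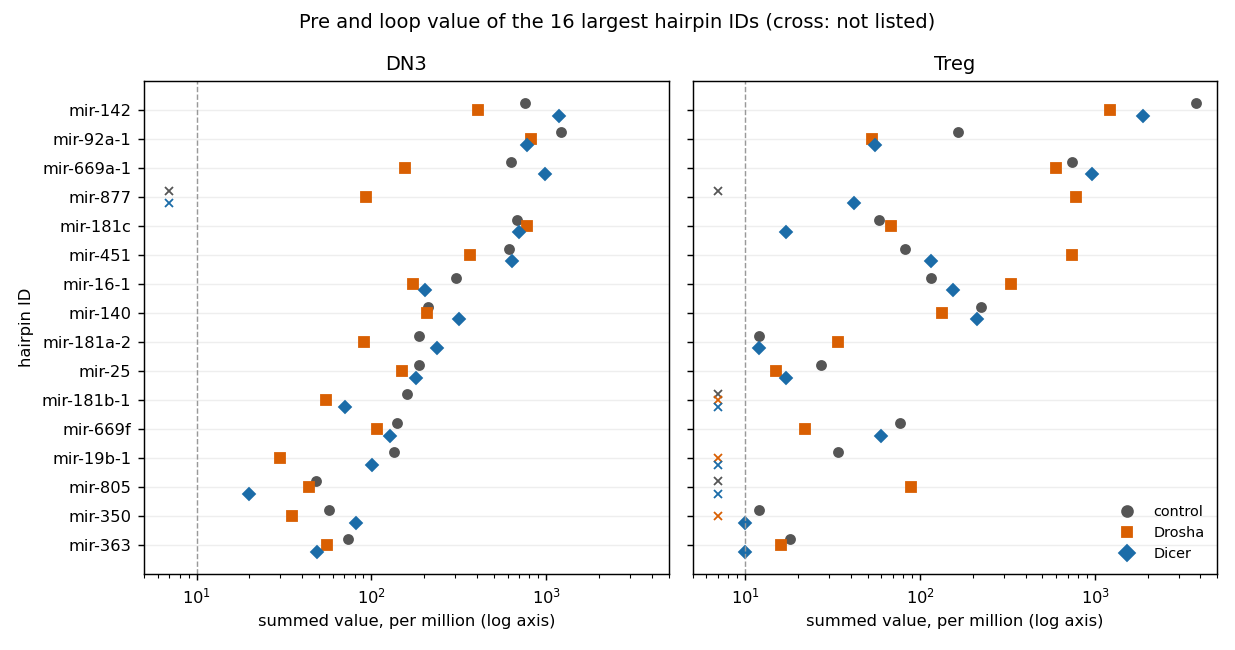
Points give the summed pre and loop value (log axis) of the 16 hairpin IDs with the highest values, in DN3 (left) and Treg (right), by genotype, with crosses for entries that are not listed and the dashed line at the floor of 10. mir-877 has a point only in deletion libraries, and mir-142 in Treg control is the highest, at 3794.

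For the comparison of genotypes, values were summed per hairpin ID and category, and the log2 ratio (pseudocount 0.5) of entries listed in both libraries was set against the median guide or passenger entry with a sum of at least 50 in both. An entry is called higher or lower at 1 log2 unit, which is 2-fold. The 3 comparisons of a cell type share libraries, so their values are given side by side only. In DN3 the median of mature entries lay at -0.26 (Drosha against control), 0.03 (Dicer against control) and 0.28 (Dicer against Drosha) before centring, and in Treg at -0.19, -0.14 and -0.01.

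In DN3 Drosha against control, 36 pre or loop entries were listed in both, with 3 higher and 5 lower. Over all entries of the lists, 8.76% were higher and 22.1% lower. mir-320 was higher by 1.94 log2 units, mir-128-2 by 1.14 and mir-29a by 1.0. Lower were mir-19b-1 (-1.89), mir-669a-1 (-1.76), mir-181b-1 (-1.26), the mir-142 loop (-1.10) and mir-30e (-1.05). The median over the 36 was -0.09, against -0.12 over all 217 entries. When ratios were centred on library totals, 1 was higher and 6 lower, and mir-128-2 (0.88) and mir-29a (0.74) were under 2-fold. With a pseudocount of 10, mir-128-2 (0.87), mir-29a (0.70), the mir-142 loop (-0.94) and mir-30e (-0.76) were under 2-fold. The guide and passenger sum did not always move with the pre entry. miR-181b had 21312 in control and 29171 in Drosha, a centred log2 ratio of 0.72 and so higher in Drosha. The pre entry of mir-181b-1, 1 of its 2 loci, was lower. Most of that entry was the mature 3p arm (138 in control and 44 in Drosha), so it does not measure the uncut hairpin. miR-320 was higher in both forms, by 2.70 as guide.

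In DN3 Dicer against control, 33 entries were listed in both, with 2 higher and 4 lower, against 3.51% higher and 5.70% lower over all 228 entries. This was the pair with the fewest calls in DN3. mir-466d (1.35) and mir-181a-1 (1.14) were higher. Both calls rest on forms listed in Dicer and not in control, at 10 to 14. The form listed in both was at 19 in control and 24 in Dicer for mir-466d. For mir-181a-1 it was at 22 in control and 17 in Dicer, so lower in Dicer. mir-805 (-1.27), mir-181b-1 (-1.18), mir-361 (-1.10) and mir-155 (-1.06) were lower. The mir-361 form listed in both was at 16 in control and 14 in Dicer, and that of mir-805 at 28 and 20. The other forms of these 2 entries, at 10 to 14 in control, were not listed in Dicer. The median over the 33 was -0.13, against -0.01 over all entries. mir-16-2, at 54, was the largest entry listed in DN3 Dicer and not in DN3 control. With a pseudocount of 10, mir-181a-1 (0.88), mir-805 (-0.97), mir-361 (-0.76) and mir-155 (-0.66) were under 2-fold, and with sequences of 19 to 25 nt only mir-181b-1 was at -0.97. For none of the 6 called entries did the mature miRNA differ by 2-fold.

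In DN3 Dicer against Drosha, 30 entries were listed in both, with 6 higher and 4 lower. Over all 213 entries, 23.0% were higher and 15% lower, and the medians were 0.03 and 0.09. Higher in Dicer were mir-669a-1 (2.38), mir-466d (1.52), the mir-142 loop (1.52), mir-19b-1 (1.45), mir-142 pre (1.22) and mir-181a-2 (1.10). The mir-466d form listed in both was at 14 in Drosha and 24 in Dicer. Lower were mir-361 (-1.69), mir-26b (-1.53), mir-805 (-1.40) and mir-155 (-1.17). The mir-155 value was under 2-fold with a pseudocount of 10 (-0.78) and with library totals (-0.89). The mir-805 form listed in both was at 16 in Drosha and 20 in Dicer, so the form itself was not lower in Dicer. That call rests on forms at 13 and 15 in Drosha that were not listed in Dicer. Drosha listed mir-877 at 93 and mir-320 at 62, which Dicer did not, and Dicer listed mir-16-2 at 54, which Drosha did not. The mir-142 loop differed as miR-142 itself did (1.59), whereas the mir-181a-2 pre entry was higher while the miR-181a sum was lower (-1.01). That pre entry was all from the 3p arm of 1 locus (91 in Drosha and 237 in Dicer). The miR-181a sum was almost all guide, listed with no locus, so these 2 values compare different arms.

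In Treg Drosha against control, 22 entries were listed in both, with 6 higher and 4 lower, against 24.1% higher and 7.41% lower over all 216 entries. mir-451 was higher by 3.35, a 10.2-fold difference, and its mature form by 3.01. mir-26b (2.30), mir-16-1 (1.71), mir-181a-2 (1.66), mir-16-2 (1.22) and mir-132 (1.06) were higher too. The mir-181a-2 form listed in both was at 12 in control and 20 in Drosha. The rest of that entry was a 19 nt form at 14 in Drosha that was not listed in control. The mir-16-2 value compares different sequences: control listed a form of its 3p arm, at 12, and Drosha the 26 nt form of its 5p arm, at 25. With a pseudocount of 10, 4 were higher and 3 lower, and mir-132, mir-16-2 (0.85) and mir-466d (-0.78) were under 2-fold. The mir-466d form listed in both was at 18 in control and 10 in Drosha. Lower were mir-669f (-1.59), mir-142 pre (-1.49), mir-92a-1 (-1.43) and mir-466d (-1.30). When ratios were centred on library totals, 4 were higher and 6 lower. The median over the 22 was -0.07, against 0.04 over all entries. mir-877 at 778 and mir-805 at 89 were listed in Drosha and not in control. For mir-16-1, at 116 and 332 in control and Drosha, the mature miR-16 differed little (114923 and 119254).

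In Treg Dicer against control, 22 entries were listed in both, with 2 higher and 4 lower, against 10.8% higher and 5.63% lower over all 213 entries. mir-16-2 (2.0) and mir-26b (1.80) were higher. For mir-16-2, Dicer listed the 26 nt form of the 5p arm, which control did not, and with sequences of 19 to 25 nt only the value was 0.98. mir-181c (-1.61), mir-92a-1 (-1.43), mir-466d (-1.22) and the mir-142 loop (-1.04) were lower. The mir-181c form listed in both was at 35 in control and 17 in Dicer. Its other forms, at 10 and 13 in control, were not listed in Dicer. With a pseudocount of 10, the mir-142 loop (-0.93) and mir-466d (-0.76) were under 2-fold. The mir-466d form listed in both was at 18 in control and 11 in Dicer. The medians were -0.14 for the 22 and 0.01 for all. mir-15b, at 53, was listed in Dicer and not in control. miR-92a was at 3636 and 4440, so the pre entry, from the 5p arm, was lower while the guide and passenger sum was not.

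In Treg Dicer against Drosha, 27 entries were listed in both, with 2 higher and 6 lower, against 2.68% higher and 15.6% lower over all 224 entries. Higher in Dicer were mir-15b (1.47) and mir-669f (1.44). mir-877 was lower by 4.18 log2 units, an 18.2-fold difference, and mir-451 by 2.65, or 6.29-fold. mir-181c (-1.96), mir-181a-2 (-1.45), mir-132 (-1.19) and mir-16-1 (-1.09) were lower too. The mir-181c form listed in both was at 25 in Drosha and 17 in Dicer, and that of mir-181a-2 at 20 and 12. The rest of these 2 entries came from forms at 14 to 27 in Drosha that were not listed in Dicer. With a pseudocount of 10, mir-181a-2 (-0.99) and mir-132 (-0.77) were under 2-fold. Here 5 of the 8 called entries had a mature miRNA that differed by 2-fold the same way. The medians were -0.10 for the 27 and -0.02 for all entries.

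**Figure D5:**
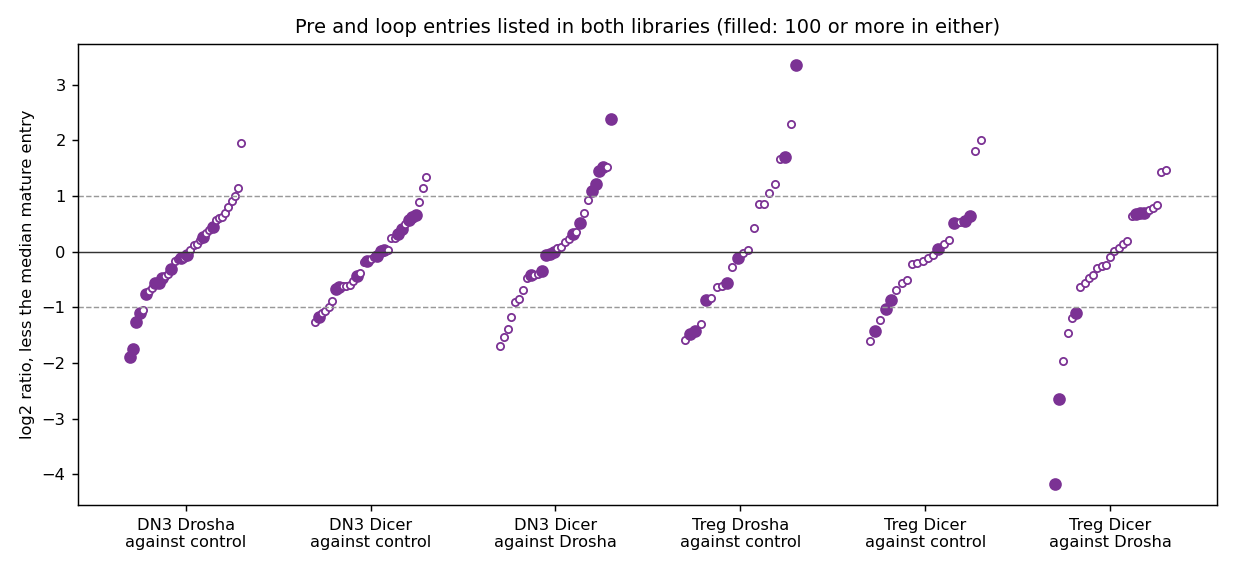
Points give the log2 ratio of each pre or loop entry listed in both libraries of a comparison, less the median mature entry, in rising order within each of the 6 comparisons, with filled points for entries at 100 or more in either library and dashed lines at 1 log2 unit either way. The points farthest from 0 are mir-877 (-4.18, Treg Dicer against Drosha) and mir-451 (3.35, Treg Drosha against control).

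Pre and loop sequences had low values, and fewer of them were shared between libraries than of the other categories. Their median value was 18.5 to 32 by library, against 53 to 59 for guide sequences, so more of them lay near the floor of 10. In DN3, 54 of 100 pre and loop sequences (54%) were listed in all 3 libraries, against 68.8% of 1112 guide and passenger sequences. Another 17 were listed only in Dicer, 5 only in Drosha and 3 only in control, while for guide and passenger sequences the shares were 5.40%, 4.23% and 4.32%. In Treg, 31 of 79 (39.2%) were listed in all 3, against 70.6% of 1100. There, 15 pre and loop sequences (19%) were listed only in Drosha, 11 (13.9%) only in control and 4 (5.06%) only in Dicer, against 10.1%, 5.64% and 2.09% of guide and passenger sequences. The part of low values in these shares was not tested. Of the 17 sequences of DN3 Dicer alone, with values of 10 to 36, 7 ran from an arm into the loop. Across both cell types 27 sequences and 18 hairpin IDs were listed in all 6 libraries, and 25 sequences in a single one.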

How the data were processed

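Small RNA libraries of DN3 thymocytes and CD4+CD25+ cells, 1 per genotype, were analysed from the deposited lists of sequences at miRNA loci, each with its miRNA ID, its category (guide, passenger, pre or loop) and 1 value. Per the labels, adaptors were clipped before mapping to miRNA loci. The aligner, miRBase release, genome build and depth are not given in the sources used here. Values are treated as a score: mapping counts that the authors normalized, per the file headers (that of DN3 Dicer does not say so), to whole numbers with totals near 1000000 and none below 10. The libraries in other formats (6 of 12) were not used here.

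Pre and loop entries were taken by category. Each sequence was searched without mismatch in its RefSeq hairpin (GRCm38.p6), and its ends were set beside the mature arms (tolerance 3 nt). Host genes came from GENCODE M21. Values were summed per ID and category with Python 3.11.15. Ratios used a pseudocount of 0.5 and entries listed in both libraries, and were checked on simulated data. With 1 library per group, no test was run. Named entries were the 5 largest per library and category, the 5 highest and 5 lowest ratios per comparison, entries at 50 or more in 1 genotype and not listed in another, entries listed in all 3 libraries of a cell type, and the preset lists. Single sequences printed, and mir-511 and mir-505, which are outside this rule, were chosen after their values were seen. The members and lists were chosen with earlier results of these data known.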

Additional observations from a re-analysis of the deposited data

Results flagged for a closer look

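Of the 20 pre or loop entries with a ratio in both cell types for a given contrast, none for Drosha against control and 1 each for the other contrasts lay at least 2-fold apart from the median mature entry in opposite directions. mir-466d in Dicer against control had a log2 ratio of 1.35 in DN3 and -1.22 in Treg, a difference of 2.57. mir-181a-2 in Dicer against Drosha had 1.10 in DN3 and -1.45 in Treg, a difference of 2.55. With 1 library per group these differences were not tested. The values behind them are low: mir-466d was at 19 and 50 in DN3 control and Dicer and at 29 and 11 in Treg. Its 23 nt form was at 19 and 24 in DN3 and at 18 and 11 in Treg. The rest came from forms listed in DN3 Dicer (14 and 12) or Treg control (11) and not in the other library of the pair. mir-181a-2 was at 34 and 12 in Treg Drosha and Dicer, with 14 of the 34 from a 19 nt form not listed in Treg Dicer.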

How the results depend on the processing

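Counts of entries called moved by over 1.5 times in these cases. With sequences at 20 or more only, the count fell from 8 to 3 (DN3 Drosha against control), 6 to 2 (DN3 Dicer against control) and 10 to 6 (DN3 Dicer against Drosha). In Treg it fell from 10 to 5 (Drosha against control), 6 to 2 (Dicer against control) and 8 to 3 (Dicer against Drosha). Fewer entries were compared, such as 21 in place of 36 in DN3 Drosha against control. No higher call was left in either DN3 comparison with control, in Treg Dicer against control or in Treg Dicer against Drosha. In DN3 Dicer against Drosha no lower call was left. A pseudocount of 10 gave 4 in DN3 Drosha against control and 2 in DN3 Dicer against control. Lengths of 19 to 25 nt gave 2 in DN3 Dicer against control, and single sequences gave 13 in DN3 Drosha against control. Apart from the cases in this section, the alternatives kept counts and shares within 1.5 times. Of the 5 highest and 5 lowest entries of each comparison, those past 2-fold fell under it in 22 cases: 15 with a pseudocount of 10, 4 with library totals, 2 with lengths of 19 to 25 nt and 1 (DN3 Dicer mir-805 against control, -0.49) with values of 20 or more. In 2 cases library totals took an entry past 2-fold: mir-142 pre in Treg Dicer (-1.02) and the mir-142 loop in Treg Drosha (-1.09), both against control. No entry past 2-fold changed sign under the alternatives that gave it a value. Below 2-fold, mir-16-2 in Treg Dicer against Drosha went from 0.85 to -0.12 with values of 20 or more.

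3 alternatives were chosen after the data were seen. Without mir-142 the pre and loop share was 0.184% in Treg control, 0.201% in Treg Dicer and 0.320% in Treg Drosha, so that control, the highest with mir-142, was the lowest without it. Without mir-451, mir-877, mir-320 and mir-805 it was 0.279% in Treg Drosha. Without sequences in a mature arm or with no RefSeq hairpin it was 0.0419%, 0.0193% and 0.0536% in DN3 control, Drosha and Dicer and 0.0164%, 0.0638% and 0.0214% in Treg. The floor of 10 and the single library per group limit every value near that floor.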

Other observations

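mir-505 was listed as pre and not as guide or passenger, at 11 and 15 in DN3 control and Drosha and at 12 in Treg Drosha. mir-192 had 23, 22 and 28 as pre and 63, 12 and 68 as guide or passenger in DN3 control, Drosha and Dicer, so the pre value varied less than the mature one. mir-132 was listed in Treg and not in DN3, with 14, 26 and 11 as pre and 11, 30 and 14 as guide or passenger in control, Drosha and Dicer.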
